A study of Mus musculus with 60 samples.

Results

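The genes described here are the ligands, receptors and secreted antagonists of the Wnt pathway in mouse embryonic stem cells. They were taken by name: symbols made of Wnt and a number with an optional a or b, symbols made of Fzd, Sfrp or Dkk and a number, and Lrp5, Lrp6, Wif1, Porcn and Frzb. This gave 42 of the 50559 genes in the deposited count table, namely 19 Wnt ligands, the Wnt acyltransferase Porcn, 10 Frizzled receptors, 2 Lrp co-receptors, 4 Dickkopf genes and 6 further secreted proteins that bind Wnt. All 42 had a count in at least 1 library, and 33 had enough counts to be tested. Polyadenylated RNA was sequenced from 60 libraries in 20 groups of 3 biological replicates. The groups were the Eed knockout and the Ezh2 knockout, both made in line 1A, and the wild-type lines V19 and 1A. Each line was collected after 0, 12, 24, 48 and 96 h in 2i, which is CHIR99021 at 3 µM, an inhibitor of the kinase GSK3, with PD0325901 at 1 µM, an inhibitor of the kinase MEK. All lines were grown in serum with LIF, a cytokine that sustains self-renewal, before the inhibitors were added.

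Library totals were 2561169 to 11065948 assigned reads with a median of 6055990. Levels are given as CPM, the reads of a gene scaled to a common library size. The 15 libraries of Eed knockout held Eed at 15.3 to 28.2 CPM, against 246 to 393 CPM in 1A wild type. For Ezh2 the 15 libraries of Ezh2 knockout held 14.51 to 19.9 CPM, against 194 to 278 CPM in 1A wild type. The summed level of 8 stem cell markers was 3889 to 4039 CPM in Eed knockout and 4813 to 4960 CPM in 1A wild type at 0 h. The deviation of a library from its replicates (root mean square over genes, log2) had a median of 0.134 over all libraries. It was highest in replicates 2 and 3 of V19 at 48 h (0.366 and 0.274), replicates 1 and 3 of Eed knockout at 12 h (0.268 and 0.254) and, for 1A wild type at 24 h, replicate 1 (0.265). The comparisons that do not use them were repeated without these groups, Ezh2 knockout at 12 h (0.101 to 0.213) and that 1A replicate, 10 libraries in all. Replicate 3 of Eed knockout at 24 h (0.203) and of 1A wild type at 48 h (0.21) deviated as much as some of these and were kept. The labels call the replicates biological but do not say whether they were separate cultures from the start or separate days, so the p-values measure the spread between these libraries.

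Wnt ligands are secreted proteins that need a lipid, attached by Porcn in the endoplasmic reticulum, to leave the cell and to bind Frizzled receptors. Ligand, Frizzled and Lrp5 or Lrp6 together block the complex that marks beta-catenin for destruction, and GSK3 is the kinase of that complex, so CHIR99021 acts inside the cell, after the receptor. Dickkopf 1 blocks Lrp5 and Lrp6, while Sfrp proteins, Frzb and Wif1 bind the ligands themselves. Eed and Ezh2 are subunits of Polycomb repressive complex 2 (PRC2), which trimethylates lysine 27 of histone H3 and keeps many developmental genes silent in embryonic stem cells, with Wnt genes among its known targets.

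Before 2i, receptors and co-receptors stood above most ligands in 1A wild type. Per length, which allows genes to be compared, Fzd7 was highest at 28.3 ± 0.96 RPKM (CPM divided by exon length in kilobases, SD, n = 3), followed by Fzd5 at 18.5 ± 0.75 RPKM. Porcn at 11.1 ± 1.0 RPKM and Lrp5 at 10.9 ± 1.1 RPKM did not differ beyond their spread, and neither did Wnt7b at 8.14 ± 0.17 RPKM and Lrp6 at 8.01 ± 0.71 RPKM. Wnt7b alone made up 57.5% of the summed CPM of the 19 ligands. After 96 h the highest member was Sfrp1 at 56.8 ± 1.4 RPKM, against 5.70 ± 0.55 RPKM at 0 h. The 9 members that were not tested were Wnt1, Wnt2, Wnt8b, Wnt9b, Wnt10a, Wnt16, Dkk2, Dkk4 and Wif1, whose group means stayed at or below 2.09 CPM, the value of Wnt9b in Eed knockout at 48 h.

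**Figure D1:**
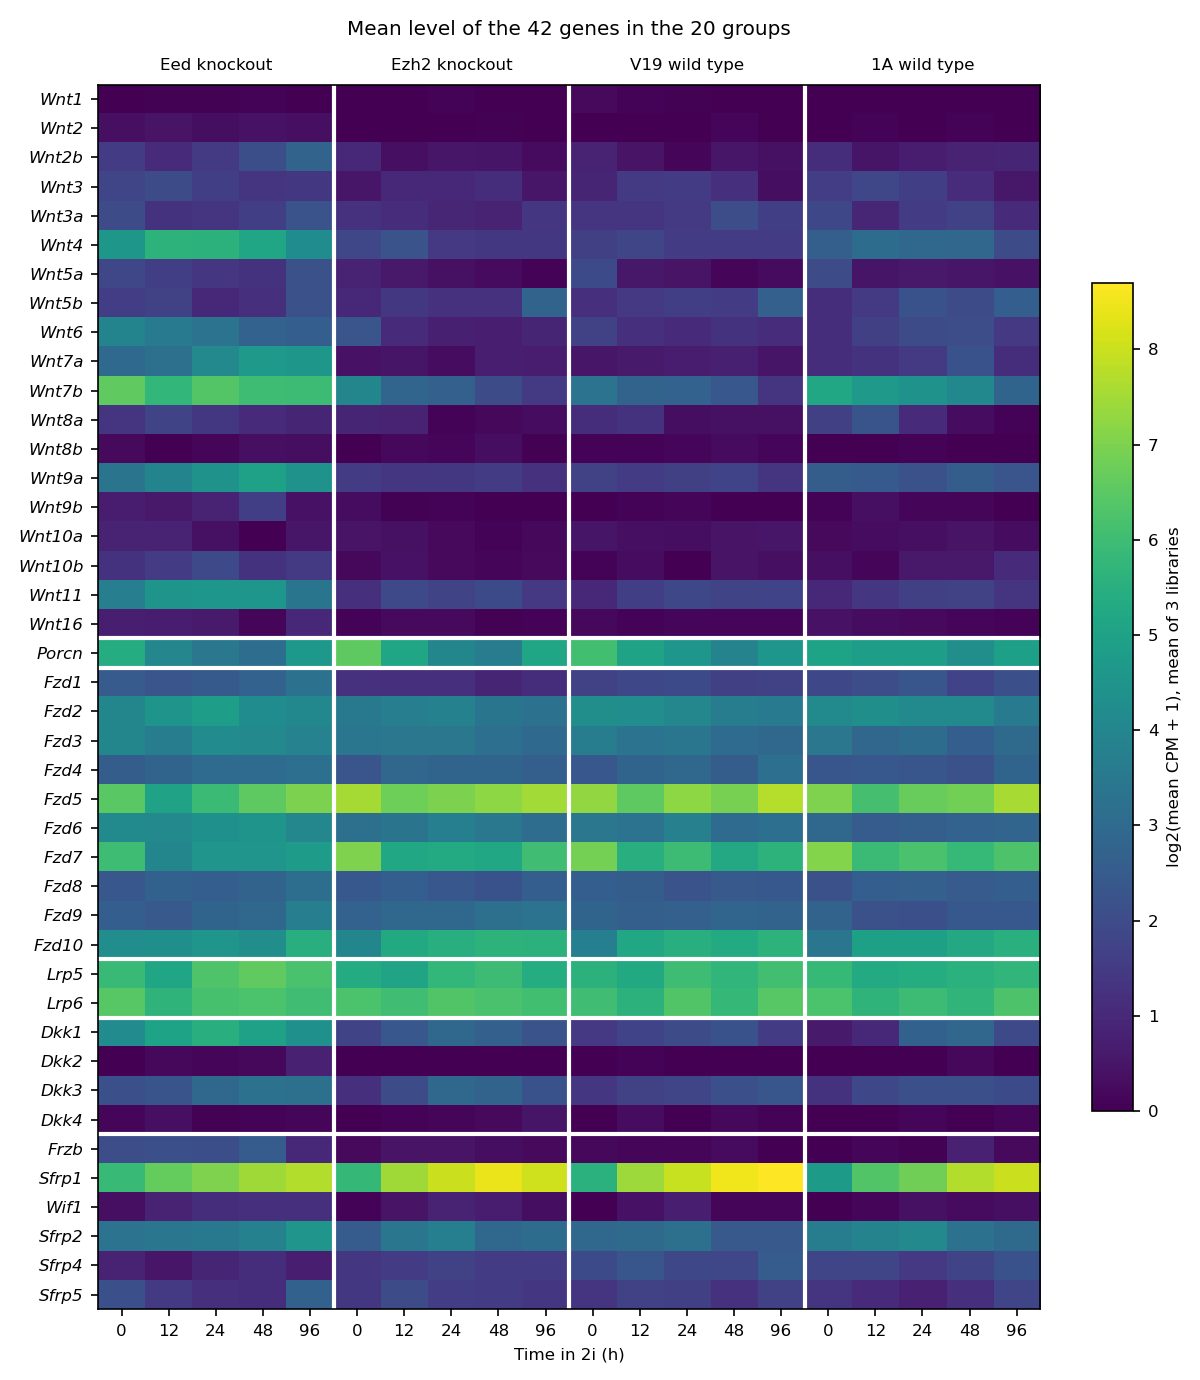
Mean level of each of the 42 genes (rows, grouped by role) in the 20 groups (columns, line and hours in 2i), as log2 of mean CPM plus 1 over 3 libraries. Sfrp1 was brighter at 96 h than at 0 h in all 4 lines, and Wnt4, Wnt6, Wnt7a, Wnt9a, Wnt11 and Dkk1 were brighter in Eed knockout than in the other 3 lines.

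The promoters of members that the results below turn on are shown, to let the sequence be read beside the levels: 4 ligands and 2 antagonists that were higher in Eed knockout, and Fzd10, which was higher after 2i in every line. Each is the 250 bases before the gene's start, read 5′ to 3′ on the gene's strand from RefSeq on build GRCm38.p6, with CpG dinucleotides in capitals.
Wnt4 (chr4:137277385-137277634, plus strand): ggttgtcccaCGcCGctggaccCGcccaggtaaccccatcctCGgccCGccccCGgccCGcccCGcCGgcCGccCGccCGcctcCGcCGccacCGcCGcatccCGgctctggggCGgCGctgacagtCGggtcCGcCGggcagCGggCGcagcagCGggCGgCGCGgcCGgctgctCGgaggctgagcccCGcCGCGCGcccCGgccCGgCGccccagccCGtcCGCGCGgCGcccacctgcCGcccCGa
Wnt6 (chr1:74771642-74771891, plus strand): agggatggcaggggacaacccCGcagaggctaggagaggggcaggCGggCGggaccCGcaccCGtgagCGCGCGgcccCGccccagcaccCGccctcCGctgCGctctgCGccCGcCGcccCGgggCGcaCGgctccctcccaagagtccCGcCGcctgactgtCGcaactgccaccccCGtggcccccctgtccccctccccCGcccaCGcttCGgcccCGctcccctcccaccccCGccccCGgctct
Wnt7a (chr6:91411354-91411603, minus strand): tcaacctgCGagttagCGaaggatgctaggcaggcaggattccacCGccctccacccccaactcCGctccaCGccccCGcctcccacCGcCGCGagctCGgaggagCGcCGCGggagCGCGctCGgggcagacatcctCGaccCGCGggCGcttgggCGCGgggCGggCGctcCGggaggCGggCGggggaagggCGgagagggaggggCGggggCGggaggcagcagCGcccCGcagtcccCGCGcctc
Wnt9a (chr11:59306680-59306929, plus strand): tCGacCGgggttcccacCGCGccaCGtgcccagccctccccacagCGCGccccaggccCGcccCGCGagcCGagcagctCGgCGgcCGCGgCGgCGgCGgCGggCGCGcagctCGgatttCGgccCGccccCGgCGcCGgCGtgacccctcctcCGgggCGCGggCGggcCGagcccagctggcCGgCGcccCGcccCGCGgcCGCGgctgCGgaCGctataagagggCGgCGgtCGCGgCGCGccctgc
Dkk1 (chr19:30549497-30549746, minus strand): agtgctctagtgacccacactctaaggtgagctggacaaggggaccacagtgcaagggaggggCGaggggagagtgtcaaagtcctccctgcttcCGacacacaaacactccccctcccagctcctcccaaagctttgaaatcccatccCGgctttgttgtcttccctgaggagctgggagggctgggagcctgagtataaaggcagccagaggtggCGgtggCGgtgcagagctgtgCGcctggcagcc
Frzb (chr2:80447397-80447646, minus strand): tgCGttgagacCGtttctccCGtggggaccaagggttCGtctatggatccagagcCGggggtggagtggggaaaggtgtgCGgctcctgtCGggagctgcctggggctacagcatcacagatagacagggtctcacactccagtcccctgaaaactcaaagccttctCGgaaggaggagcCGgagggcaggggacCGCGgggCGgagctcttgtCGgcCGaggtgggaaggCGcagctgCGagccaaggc
Fzd10 (chr5:128600856-128601105, plus strand): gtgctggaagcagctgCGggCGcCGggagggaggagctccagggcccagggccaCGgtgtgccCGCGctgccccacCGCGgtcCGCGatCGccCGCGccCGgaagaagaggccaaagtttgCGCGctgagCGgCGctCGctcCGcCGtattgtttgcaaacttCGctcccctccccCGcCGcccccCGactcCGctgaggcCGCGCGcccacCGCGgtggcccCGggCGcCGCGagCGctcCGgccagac
A promoter was listed for 27 of the 42 members. Their CpG count per window had a median of 22 (range 5 to 48), against a median of 6 and quartiles of 2 and 17 over 27025 genes, taking the richest window of a gene with several. At least 20 CpG were found in 17 of the 27 members, against 19.7% of all genes. Wnt9a held 48, Wnt4 44, Fzd10 37, Wnt7a 34 and Wnt6 28 CpG, while Frzb held 16 and Dkk1 6. Of the members with a promoter, 11 were called higher in Eed knockout than in 1A wild type at 0 h. Their median was 28 CpG, and 6 of the 11 held at least 20. The 7 tested members not called had a median of 35, with 6 at 20 or more. The 2 called lower had a median of 24.5 and the 7 not tested 20. The motif CTTTGA, read on both strands (its other strand is TCAAAG) and the core of sites bound by TCF factors, the DNA-binding partners of beta-catenin, was found in 5 of the 27 members and in 15.8% of all genes. Dkk1 held 2 matches and Frzb 1, and the other 5 windows shown held none. A match describes these letters only.

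Each comparison used the quasi-likelihood test of edgeR on all 15083 genes that passed the filter on low counts. The p-values were adjusted by Benjamini and Hochberg's method, and calls were made at adjusted values under 0.05. Log2 fold changes are given ± standard error, with 3 libraries in each group. The first question was how the 2i inhibitors changed the members in each line. After 96 h, 14 members were higher and 7 lower than at 0 h in Eed knockout, 6 and 6 in Ezh2 knockout, 9 and 9 in V19, and 8 and 10 in 1A wild type. Members called made up 63.6% of the 33 in Eed knockout (39.7% of all genes tested), 36.4% in Ezh2 knockout (42.8% of all genes), 54.5% in V19 (47.5% of all genes) and 54.5% in 1A wild type (48.6% of all genes). The members' median log2 fold change was 0.33 in Eed knockout, -0.03 in Ezh2 knockout, -0.18 in V19 and -0.01 in 1A, while over all genes it was between 0.01 and 0.05. At 12 h, 6 members were higher and 9 lower in Eed knockout, where 50.3% of all genes were called, and 8 were higher and 6 lower in Ezh2 knockout, where 50.1% of all genes were called (26.2% higher and 23.9% lower). At the same time 3 were higher and 6 lower in V19 (42.3% of all genes called) and 3 higher and 10 lower in 1A wild type (40.8% of all genes called). The RUV score, a normalization by the authors described below, called 8 members at 12 h in Eed knockout in place of 15. Over all genes it called 7397 there, in place of 7588. The 96 h response differed from that of 1A wild type for 10 members upward and 6 downward in Eed knockout (14.9 and 12.4% of all genes) and for 2 upward and 5 downward in Ezh2 knockout (5.42 and 6.76% of all genes). In Eed knockout, Wnt2b is among the upward and Frzb among the downward members, both here and at 96 h against 0 h. Wnt2b and Frzb passed the filter on low counts through Eed knockout libraries, as set out below. Dkk3, Fzd10, Sfrp1 and Wnt5b were higher and Fzd7 and Wnt7b lower at 96 h in all 4 lines, each against its own 0 h libraries, but the call of Wnt5b in Eed knockout (edgeR adjusted p = 0.0467) was lost under every other normalization, filter, model or tool tried (highest adjusted p = 0.13, in the RUV score) except the fit with only the groups compared (edgeR adjusted p = 0.0341). The share of all genes called the same way in all 4 lines, at 12 or 96 h, was not counted. Calls shared by the 4 lines are therefore not read as particular to the members.

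Among the ligands, Wnt7b, which is needed for lung and placenta development, fell in every line (chromosome 15, 85419638 to 85466022, GRCm39). Eed knockout libraries were at 59.1, 60.1 and 64.4 CPM at 96 h, against 97.1, 101 and 86.6 CPM at 0 h, a log2 fold change of -0.63 ± 0.12. In Ezh2 knockout it was at 2.48, 1.11 and 1.75 CPM at 96 h, against 15.0, 14.1 and 16.2 CPM at 0 h (-3.05 ± 0.24). V19 libraries were at 0.919, 1.71 and 2.07 CPM at 96 h, against 9.43, 8.20 and 8.94 CPM at 0 h (-2.44 ± 0.30). No 96 h library of Wnt7b overlapped a 0 h library in any line. The 1A wild type libraries were at 7.48, 6.29 and 4.41 CPM at 96 h, against 36.1, 36.6 and 35.1 CPM at 0 h (-2.55 ± 0.18). The response in Eed knockout differed from that of 1A wild type (1.92 ± 0.22, edgeR adjusted p = 1.22e-09). Few reads (25 in all libraries) fell in AU022754, which overlaps Wnt7b on the other strand.

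Wnt5a, a ligand known mostly for signalling without beta-catenin, was lower at 96 h in every line but Eed knockout. In Eed knockout it averaged 2.59, 2.10, 1.57, 1.45 and 3.47 CPM over the 5 times and was not called at 12 or 96 h. Ezh2 knockout averaged 0.0551 CPM at 96 h, against 0.801 CPM at 0 h (-3.56 ± 0.98), and was not called at 12 h. Its 96 h libraries held 1, 0 and 0 reads of Wnt5a, against 4, 5 and 7 at 0 h, so the size of this fold change is uncertain. V19 showed 0.489 CPM at 12 h and 0.190 CPM at 96 h, against 2.88 CPM at 0 h (-2.51 ± 0.51 and -3.72 ± 0.65). It averaged 0.414 CPM at 12 h and 0.356 CPM at 96 h in 1A wild type, against 3.10 CPM at 0 h (-2.93 ± 0.52 and -3.10 ± 0.54). Reads of Wnt5a at 96 h were also few in V19 (0, 3 and 0) and 1A wild type (2, 2 and 2). The 96 h response of Wnt5a in Eed knockout differed from that of 1A wild type by 3.54 ± 0.65. Wnt3, the ligand of the primitive streak, averaged 0.477 CPM at 96 h in 1A wild type, against 2.01 CPM at 0 h (-2.09 ± 0.52), and Wnt8a 0.0612 CPM at 96 h, against 2.15 CPM at 0 h (-4.73 ± 0.85). Wnt8a had 0, 0 and 1 reads in these 96 h libraries, so the size of its fold change is uncertain.

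Wnt5b, a relative of Wnt5a, went the other way. In Eed knockout it was at 3.73, 3.65 and 2.94 CPM at 96 h, against 1.73, 1.92 and 2.36 CPM at 0 h (0.77 ± 0.32). That call (edgeR adjusted p = 0.0467) was lost when any of 5 of the 6 libraries, all but replicate 3 at 96 h, was left out (log2 fold change down to 0.67, highest edgeR adjusted p = 0.15). Ezh2 knockout libraries were at 6.61, 5.55 and 5.24 CPM at 96 h, against 1.89, 0.382 and 0.617 CPM at 0 h (2.65 ± 0.33). V19 libraries were at 4.83, 6.27 and 5.00 CPM at 96 h, against 1.95, 0.615 and 1.28 CPM at 0 h (2.00 ± 0.34). Levels at 96 h were above all 0 h libraries in each line. Those of 1A wild type were at 4.30, 4.39 and 6.42 CPM at 96 h, against 1.33, 1.31 and 1.02 CPM at 0 h (1.99 ± 0.34). The difference between the responses of Eed knockout and 1A wild type was not called (-1.22, edgeR adjusted p = 0.0557).

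Summed over the 19 ligands, the 96 h level was 160 ± 8.42 CPM in Eed knockout, 16.8 ± 3.69 CPM in Ezh2 knockout, 18.2 ± 0.514 CPM in V19 and 26.7 ± 2.10 CPM in 1A wild type (SD, n = 3 each). At 0 h the sums were 178 ± 13.1 CPM in Eed knockout, 31.4 ± 2.58 CPM in Ezh2 knockout, 26.3 ± 2.33 CPM in V19 and 62.6 ± 3.54 CPM in 1A wild type. Without Wnt7b the sum in 1A wild type was 20.6 ± 3.29 CPM at 96 h and 26.7 ± 3.10 CPM at 0 h, and the ranges of the libraries did not overlap (16.9 to 22.9 CPM and 24.0 to 30.1 CPM). These sums are levels and were not tested.

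Porcn (chromosome X, 8060085 to 8072794) had its lowest mean at 48 h in every line. In Ezh2 knockout the libraries were at 90.8, 89.9 and 97.3 CPM at 0 h, 37.0, 33.5 and 33.9 CPM at 12 h, 15.7, 13.3 and 15.4 CPM at 24 h, 13.0, 9.82 and 12.8 CPM at 48 h and 34.2, 30.9 and 38.2 CPM at 96 h. The 96 h level was thus above that at 24 and 48 h but below that at 0 h (-1.42 ± 0.10 at 96 h). V19 was likewise above its 48 h level and below its 0 h level at 96 h (22.5, 19.6 and 25.7 CPM at 96 h, 12.6, 16.0 and 12.7 CPM at 48 h, against 61.3, 69.5 and 66.4 CPM at 0 h, -1.53 ± 0.12), where 2 of the 48 h libraries have the highest deviation of all. Eed knockout was at 24.3, 22.8 and 24.4 CPM at 96 h and 7.47, 8.45 and 7.66 CPM at 48 h, against 43.9, 36.8 and 42.4 CPM at 0 h (-0.79 ± 0.11). In 1A wild type the 48 h libraries (19.2, 22.6 and 14.6 CPM) lay below all 0 h and 96 h libraries. The 96 h libraries of 1A wild type (25.5, 32.0 and 30.1 CPM) overlapped those at 0 h (29.5, 32.3 and 35.3 CPM), and Porcn was not called at 12 or 96 h. Its 96 h response differed from that of 1A wild type in Eed knockout (-0.64 ± 0.16), Ezh2 knockout (-1.27 ± 0.16) and V19 (-1.39 ± 0.17), and in V19 it was the 1 member whose response was called different, where 1.68% of all genes were, while 5 alternatives called 2 or 3 members there.

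The Frizzled receptors changed in opposite ways. Fzd7 (chromosome 1, 59521306 to 59526114), known as an abundant Frizzled receptor of human pluripotent cells, had fallen in all lines by 12 h and stayed below its 0 h level. It was at 13.7, 15.0 and 16.5 CPM in Eed knockout at 12 h, against 63.6, 57.7 and 66.7 CPM at 0 h (-2.03 ± 0.13). Ezh2 knockout showed 32.0, 31.7 and 41.8 CPM at 12 h, against 128, 129 and 132 CPM at 0 h (-1.90 ± 0.11). V19 showed 39.5, 49.1 and 40.1 CPM at 12 h, against 118, 105 and 129 CPM at 0 h (-1.46 ± 0.11), and 1A wild type 54.1, 60.4 and 64.4 CPM at 12 h, against 131, 138 and 139 CPM at 0 h (-1.19 ± 0.11). At 96 h the difference from 0 h was -1.23 ± 0.12 in Eed knockout, -0.99 ± 0.11 in Ezh2 knockout, -1.27 ± 0.12 in V19 and -0.83 ± 0.11 in 1A wild type. The share of Fzd7 in the summed CPM of the 10 Frizzled genes was 21.8% at 96 h in 1A wild type, against 42.1% at 0 h.

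Fzd10 (chromosome 5, 128678170 to 128681157) took the opposite course. In Eed knockout it was at 13.7, 21.2 and 22 CPM at 12 h, 25.3, 25.7 and 16.2 CPM at 24 h and 19.7, 19.1 and 17.2 CPM at 48 h, overlapping the 0 h libraries (19.8, 17.2 and 17.2 CPM), and reached 42.6, 42 and 43.7 CPM at 96 h (1.24 ± 0.15). Ezh2 knockout libraries were at 42.8, 49.1 and 49.6 CPM at 96 h, against 15.3, 14.8 and 14.8 CPM at 0 h (1.66 ± 0.15). V19 showed 52.6, 45.1 and 45.8 CPM at 96 h, against 12.8, 11.5 and 13.6 CPM at 0 h (1.91 ± 0.16). Every 96 h library lay above every 0 h library of its line. For 1A wild type the values were 43.3, 47.3 and 42.9 CPM at 96 h, against 8.44, 9.47 and 10.9 CPM at 0 h (2.23 ± 0.17). Outside Eed knockout Fzd10 was already higher at 12 h, at 25.8 to 38.7 CPM over 9 libraries.

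**Figure D2:**
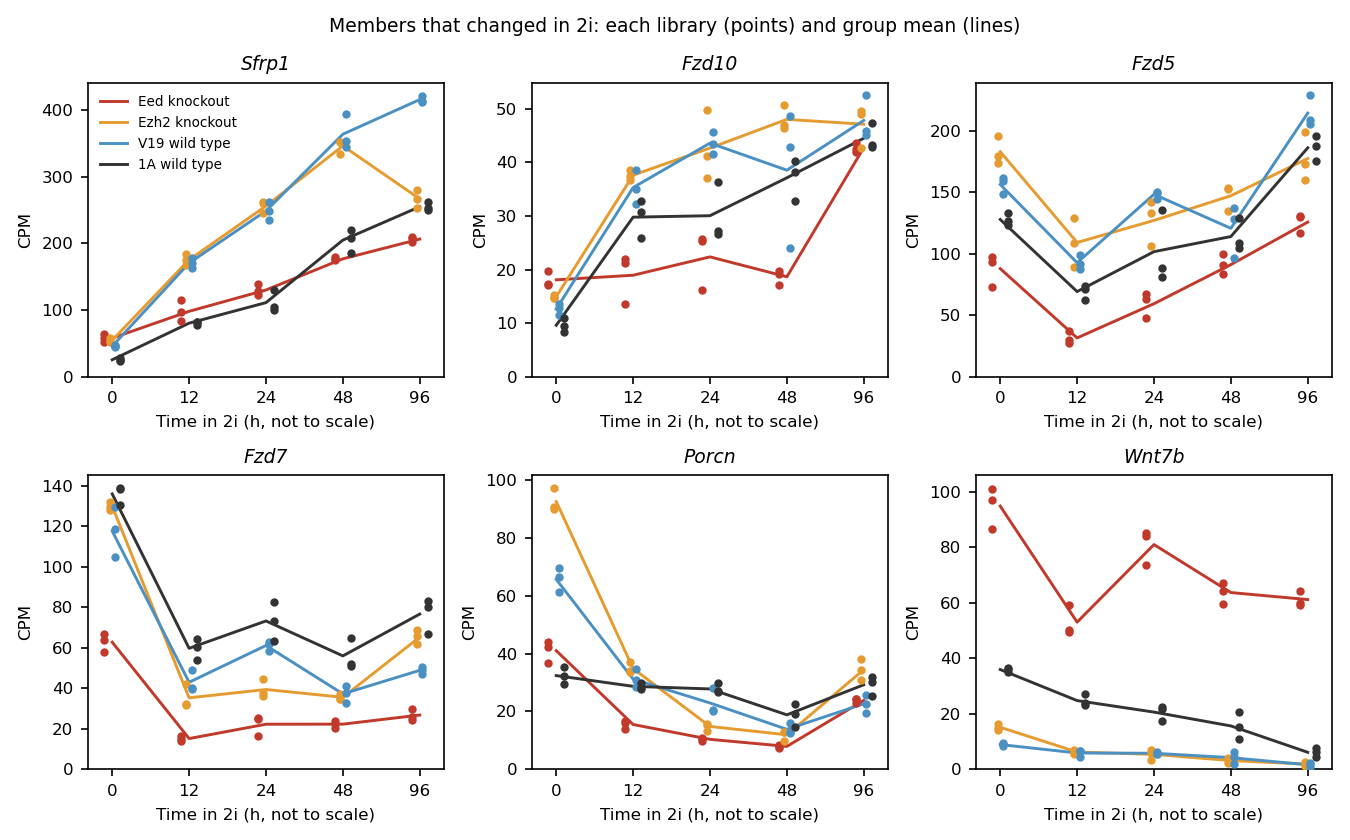
CPM of Sfrp1, Fzd10, Fzd5, Fzd7, Porcn and Wnt7b against hours in 2i (axis not to scale) in the 4 lines, with a point for each library and a line through the means of 3. Fzd10 in Eed knockout was between 13.7 and 25.7 CPM up to 48 h and was at 42 to 43.7 CPM at 96 h, and Fzd7 was lower at 12 h than at 0 h in every line.

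Fzd5 was lower at 12 h in all 4 lines and then recovered. It was at 27.6, 30.0 and 37.2 CPM at 12 h in Eed knockout, against 93.3, 73.4 and 97.1 CPM at 0 h (-1.46 ± 0.15). The 12 h difference was -0.75 ± 0.13 in Ezh2 knockout, -0.75 ± 0.14 in V19 and -0.88 ± 0.14 in 1A wild type. At 96 h Fzd5 was higher than at 0 h in Eed knockout (131, 117 and 130 CPM, 0.52 ± 0.14), V19 (209, 229 and 205 CPM, against 159, 148 and 162 CPM at 0 h, 0.46 ± 0.13) and 1A wild type (187, 196 and 175 CPM, against 127, 123 and 134 CPM at 0 h, 0.54 ± 0.14). In Ezh2 knockout the 96 h libraries (160, 173 and 199 CPM) overlapped those at 0 h (174, 180 and 195 CPM). Fzd9 rose in both knockouts, at 10.1, 13.3 and 13.2 CPM in Eed knockout at 96 h, against 5.04, 4.53 and 5.74 CPM at 0 h (1.25 ± 0.17), and at 8.59, 8.70 and 9.82 CPM in Ezh2 knockout at 96 h, against 7.05, 5.72 and 4.16 CPM at 0 h (0.70 ± 0.17). It was at 4.62, 4.77 and 3.49 CPM at 96 h and 6.07, 6.70 and 4.58 CPM at 0 h in 1A wild type and was not called, and both knockouts' responses differed from it (1.71 ± 0.27 and 1.16 ± 0.27). Fzd6 was the only tested member not called at 96 h in any line. Of the co-receptors, Lrp6 was lower at 96 h in Eed knockout (64.0 CPM, against 86.3 CPM at 0 h, -0.43 ± 0.17) and was not called at 96 h in the other lines. Lrp6 was also lower at 12 h in Eed knockout (-0.81 ± 0.18), V19 (-0.46 ± 0.18) and 1A wild type (-0.61 ± 0.18). Lrp5 was higher at 96 h in V19 (66.4 CPM, against 47.0 CPM at 0 h, 0.49 ± 0.19) and lower at 12 h in Eed knockout (-0.72 ± 0.19) and 1A wild type (-0.52 ± 0.19). Leaving out 1 library ended 4 of these calls. That of Lrp6 in Eed knockout at 96 h was lost without replicate 1 or 3 at 0 h or 2 or 3 at 96 h (highest edgeR adjusted p = 0.171), and that in V19 at 12 h without replicate 1 or 3 at either time (highest edgeR adjusted p = 0.21). The call of Lrp5 in V19 at 96 h was lost without replicate 2 or 3 at 0 h or 1 or 2 at 96 h (highest edgeR adjusted p = 0.156), and that in 1A wild type at 12 h without any of its libraries but replicate 1 at 0 h (highest edgeR adjusted p = 0.0844). Fzd4 overlaps exons of Tmem135 on the other strand, a gene with 13702 counts against its own 2084, and whether the counting used strand is not given in the sources used here, so its values are uncertain.

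Of the antagonists, Sfrp1 (chromosome 8, 23901401 to 23939648) showed the largest rise in abundance. The Eed knockout libraries were at 202, 209 and 208 CPM at 96 h, against 57.5, 52.4 and 64.2 CPM at 0 h (1.83 ± 0.09). Ezh2 knockout reached 334, 352 and 352 CPM at 48 h and was at 254, 266 and 280 CPM at 96 h, against 52.6, 58.5 and 53.4 CPM at 0 h (2.28 ± 0.09 at 96 h). V19 was at 420, 413 and 413 CPM at 96 h, against 45.7, 44.1 and 47.9 CPM at 0 h (3.18 ± 0.09). No 96 h library overlapped a 0 h library of its line. Sfrp1 was at 253, 262 and 250 CPM at 96 h in 1A wild type, against 28.1, 23.2 and 25.4 CPM at 0 h (3.31 ± 0.10). The responses of Eed knockout (-1.48 ± 0.13, edgeR adjusted p = 2.9e-13) and Ezh2 knockout (-1.03 ± 0.13, edgeR adjusted p = 2.73e-08) were both smaller than that of 1A wild type, while their 0 h levels were already higher. Sfrp1 was also the only member called higher at 12 h in all 4 lines. It made up 77.7% of the summed CPM of the 10 antagonists in Eed knockout, 93.4% in Ezh2 knockout, 96.0% in V19 and 92.9% in 1A wild type at 96 h.

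Sfrp2, which has the same kind of ligand-binding domain, moved in different directions. In Eed knockout it was at 20.5, 26.8 and 19.5 CPM at 96 h, against 10.4, 8.71 and 7.93 CPM at 0 h (1.30 ± 0.16). Ezh2 knockout was at 6.28, 7.04 and 9.06 CPM at 96 h, against 4.64, 4.20 and 5.71 CPM at 0 h (0.66 ± 0.21). That rise was lost without replicate 2 at 0 h or replicate 3 at 96 h (log2 fold change down to 0.46, highest edgeR adjusted p = 0.133). Sfrp2 was at 6.37, 9.15 and 5.51 CPM at 96 h in 1A wild type, against 12.0, 12.6 and 10.4 CPM at 0 h (-0.76 ± 0.19), after 17.2, 14.9 and 16.3 CPM at 24 h. The 96 h response differed from that of 1A wild type by 2.06 ± 0.25 in Eed knockout (edgeR adjusted p = 5.24e-09) and by 1.42 ± 0.28 in Ezh2 knockout.

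Dkk1 (chromosome 19, 30523276 to 30526896) had its highest mean at 24 or 48 h in every line. In Eed knockout it was at 16.4, 17.8 and 17.7 CPM at 0 h, 31.3, 33.3 and 32.0 CPM at 12 h, 42.7, 38.8 and 48.6 CPM at 24 h, 30.4, 32.0 and 28.3 CPM at 48 h and 19.7, 20.4 and 18.9 CPM at 96 h. It was therefore higher at 12 h (0.90 ± 0.14, but 0.61 and not called in the RUV score, limma adjusted p = 0.0776) and not called at 96 h in that line. Ezh2 knockout was at 2.92, 2.04 and 2.47 CPM at 0 h, 8.30, 6.27 and 5.17 CPM at 24 h and 3.14, 4.26 and 3.71 CPM at 96 h, and V19 at 1.63, 2.46 and 1.06 CPM at 0 h, 3.45, 3.81 and 3.29 CPM at 48 h and 1.84, 1.71 and 2.24 CPM at 96 h, with neither called at 96 h. The 1A wild type libraries were at 1.43, 3.05 and 3.85 CPM at 96 h, against 0.888, 0.490 and 0.254 CPM at 0 h (2.16 ± 0.41), with 4.44, 5.95 and 5.98 CPM at 24 h and 7.54, 7.49 and 3.74 CPM at 48 h in between. Dkk3, a Dickkopf protein without a clear action on Lrp5 and Lrp6, was higher at 96 h in every line, with 7.15, 7.0 and 10.4 CPM in Eed knockout at 96 h, against 4.56, 2.27 and 3.21 CPM at 0 h (1.27 ± 0.24). It was at 3.63, 2.78 and 4.15 CPM in Ezh2 knockout at 96 h, against 1.38, 0.509 and 1.85 CPM at 0 h (1.58 ± 0.34). In V19 it was at 3.91, 3.99 and 4.14 CPM at 96 h, against 1.30, 1.02 and 2.55 CPM at 0 h (1.32 ± 0.35). The call in 1A wild type (1.01 ± 0.37) was lost without replicate 2 at 0 h or replicate 3 at 96 h (log2 fold change down to 0.85, highest edgeR adjusted p = 0.0908).

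The second question was how the knockout lines differed from 1A wild type before 2i. The labels name no separate clones of either knockout, so the loss of a subunit cannot be told apart from other differences between lines. In Eed knockout at 0 h, 17 members were higher and 3 lower than in 1A wild type, where 26.4% of all genes tested were called higher and 23.3% lower. Of the 13 tested ligands 7 were higher (4 of them turned direction in the authors' RUV score described below), of 10 Frizzled receptors 4 were higher and 2 lower, and of 7 tested antagonists 5 were higher and 1 lower. The median log2 fold change was 0.97 over the 13 ligands and 0.67 over the 33 members, against 0.00 over all genes. Wnt2b, Wnt10b and Frzb passed the filter on low counts through Eed knockout libraries (under 3 libraries of the other lines reached its 1.65 CPM), so they were tested because of their level there. Without these 3, 15 of 30 members were higher and 3 lower, and 6 of 11 ligands were higher. In Ezh2 knockout, by contrast, 6 members were higher and 10 lower, with 11.9 and 10.9% of all genes called higher and lower, and among the 13 ligands 1 was higher and 7 lower (median -1.01). Both knockouts were compared with the same 1A libraries, so they were also compared directly: at 0 h 21 members were higher and 3 lower in Eed than in Ezh2 knockout, with 45.3% of all genes called (23.6% higher and 21.7% lower), and 11 of 13 ligands were higher. Without Wnt2b, Wnt10b and Frzb these were 19 higher and 3 lower of 30, with 10 of 11 ligands higher. The RUV score called 3 members in that comparison, 2 higher and 1 lower, and 2 of the 24 calls held in it. Over all genes the score called 1737, in place of 6832.

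Eed knockout libraries also carried markers of other cell types. The summed level of 12 primitive endoderm markers at 0 h was 5856 to 6201 CPM in Eed knockout and, in Ezh2 knockout, 1184 to 1290 CPM, against 751 to 824 CPM in 1A wild type, and all 12 were called higher in Eed knockout. The sum of 10 trophoblast markers was 1590 to 2083 CPM in Eed knockout and, in Ezh2 knockout, 176 to 189 CPM, against 275 to 326 CPM in 1A wild type, with 9 of 9 tested markers higher in Eed knockout and Tpbpa without a count in any of these groups. Mesendoderm markers summed to 36.8 to 42.4 CPM in Eed knockout and 3.85 to 5.88 CPM in 1A wild type, with T without a count in both, and fibroblast markers to 114 to 125 CPM in Eed knockout and 107 to 114 CPM in 1A wild type. Of 4 tested mesendoderm markers 3 were higher and 0 lower, and of 6 tested fibroblast markers 4 were higher and 1 lower. Neural progenitor markers summed to 51.7 to 56.6 CPM in Eed knockout and 65.3 to 75.3 CPM in 1A wild type. Of the 4 tested, 1 was higher and 2 lower. The part of such cells in the levels below was not tested, and in bulk RNA fewer cells of a type and less RNA per cell cannot be told apart. The authors also deposited a score normalized by removal of unwanted variation (RUV), whose settings are not given in the sources used here. In that score the fall of Eed itself in Eed knockout was -0.61, against -3.94 in raw counts, while that of Ezh2 in Ezh2 knockout was -3.69, against -3.67 in raw counts. With it 10 members were called in Eed knockout at 0 h (5 higher and 5 lower), in place of 20, and the direction turned for Wnt4, Wnt7a, Wnt7b, Wnt9a, Fzd1, Fzd3, Fzd5 and Fzd7, so the directions below for those genes hold for raw counts only. Calls over all genes were fewer too, at 3005 in the score and 7488 in raw counts. The score holds 38 members and 17754 genes, while 33 members and 15083 genes were tested in raw counts. Of the 20 calls in raw counts 5 held in the score (Dkk1, Fzd10, Porcn, Sfrp1 and Wnt6), 7 were lost with the same direction and 8 turned. The comparisons of Eed knockout below are therefore to be read as those of raw counts. For members described below in Eed knockout against 1A wild type at 0 or 96 h, the score's value is given where a call was lost.

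Among ligands, Wnt7b was the most abundant, at 97.1, 101 and 86.6 CPM in Eed knockout, against 36.1, 36.6 and 35.1 CPM in 1A wild type (1.4 ± 0.13, but -1.16 in the RUV score). Wnt4 (chromosome 4, 137004946 to 137026812), a ligand of kidney and gonad development, was at 26.3, 24.9 and 19.4 CPM in Eed knockout, against 4.59, 7.19 and 3.81 CPM in 1A wild type (2.14 ± 0.21, but -0.59 in the RUV score). Wnt6 was at 16.4, 15.3 and 10.8 CPM in Eed knockout, against 1.78, 1.144 and 0.763 CPM in 1A wild type (3.42 ± 0.26). Every Eed knockout library lay above every 1A library for these 3 genes. Wnt11, a ligand of cell movements in the embryo, was at 12.6, 12.9 and 11.3 CPM in Eed knockout, against 0.592, 0.817 and 1.53 CPM in 1A wild type (3.75 ± 0.33, but 0.89 and not called in the RUV score, limma adjusted p = 0.0684). Wnt7a was at 7.24, 7.32 and 6.08 CPM in Eed knockout, against 1.04, 1.31 and 1.27 CPM in 1A wild type (2.51 ± 0.30, but -1.08 in the RUV score). Wnt9a was at 11.2, 8.36 and 8.27 CPM in Eed knockout, against 2.81, 6.04 and 5.85 CPM in 1A wild type (0.97 ± 0.26, but -1.39 in the RUV score), and its call was lost without replicate 1 of 1A wild type (0.64, edgeR adjusted p = 0.0529). The seventh, Wnt10b, averaged 1.4 CPM in Eed knockout and 0.273 CPM in 1A wild type (2.44 ± 0.67, but 0.14 and not called in the RUV score, limma adjusted p = 0.898), and passed the filter on low counts through Eed knockout only. Wnt2b, Wnt3, Wnt3a, Wnt5a, Wnt5b and Wnt8a were not called at 0 h.

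Time in 2i separated these ligands further in Eed knockout. Wnt7a was at 21.5, 20.3 and 27.6 CPM at 96 h, against 7.24, 7.32 and 6.08 CPM at 0 h (1.75 ± 0.17), and Wnt9a at 22.9, 19.98 and 20.02 CPM at 96 h after 31.0, 33.0 and 26.7 CPM at 48 h, against 11.2, 8.36 and 8.27 CPM at 0 h (1.17 ± 0.20). Wnt6 fell to 3.58, 5.54 and 5.88 CPM at 96 h, against 16.4, 15.3 and 10.8 CPM at 0 h (-1.49 ± 0.19). Wnt4 was at 51.9, 45.9 and 46.6 CPM at 12 h and 41.9, 47.0 and 52.6 CPM at 24 h, above both its 0 h libraries and its 96 h libraries (15.2, 18.8 and 18.8 CPM), and Wnt11 had the same form, with 29.1, 19.1 and 17.2 CPM at 12 h and 10.1, 8.60 and 9.94 CPM at 96 h. Wnt2b was at 4.66, 6.13 and 6.86 CPM at 96 h, against 1.89, 1.22 and 2.36 CPM at 0 h (1.68 ± 0.35). At 96 h none of Wnt2b, Wnt6, Wnt7a, Wnt9a and Wnt11 was called in 1A wild type. The differences from the 1A response were 1.76 ± 0.49 for Wnt7a, 1.45 ± 0.37 for Wnt9a and -1.88 ± 0.45 for Wnt6. In the RUV score the differences of Wnt7a (1.16, limma adjusted p = 0.224) and Wnt9a (0.99, limma adjusted p = 0.18) were not called. Nor were the changes at 96 h in Eed knockout of Wnt7a (0.74, limma adjusted p = 0.254), Wnt9a (0.47, limma adjusted p = 0.376) and Wnt2b (1.144, limma adjusted p = 0.203). The rises at 12 h of Wnt4 (0.75, limma adjusted p = 0.0853) and Wnt11 (0.55, limma adjusted p = 0.202) were not called in the score either. Markers of other cell types moved over the same time in Eed knockout. All 12 primitive endoderm markers were lower at 96 h than at 0 h, with sums of 2398 to 2685 CPM at 96 h, against 5856 to 6201 CPM at 0 h, and 7 of 9 trophoblast markers were higher and 2 lower (2719 to 2841 CPM at 96 h, against 1590 to 2083 CPM at 0 h). Their part in these changes was not tested. Of the neighbouring pairs, Wnt3a and Wnt9a lie 16.1 kb apart, Wnt1 and Wnt10b 11.6 kb and Wnt6 and Wnt10a 6.7 kb, and Wnt3 and Wnt9b overlap. Wnt3a averaged 3.63 CPM at 96 h and 3.03 CPM at 0 h in Eed knockout, and Wnt10a stayed at or below 0.840 CPM.

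**Figure D3:**
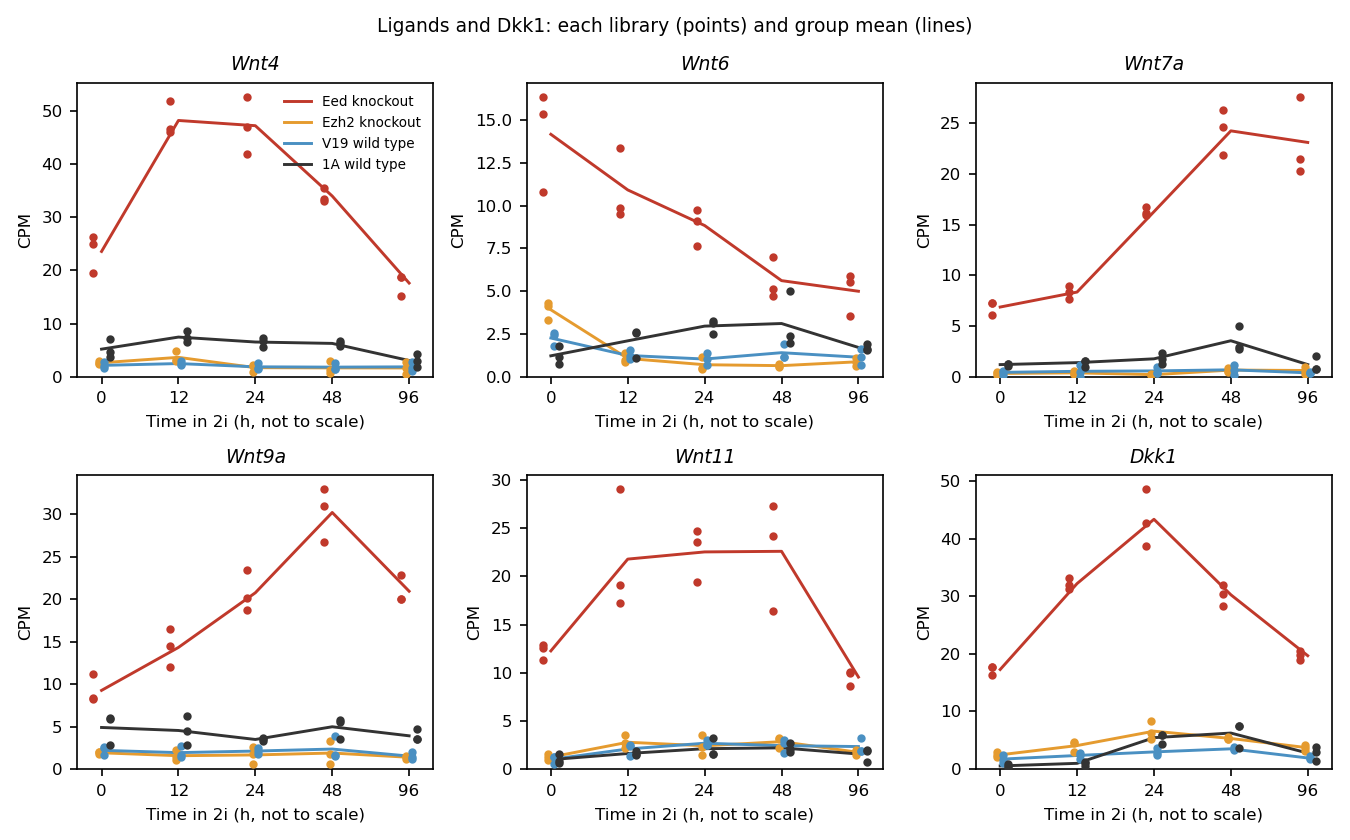
CPM of Wnt4, Wnt6, Wnt7a, Wnt9a, Wnt11 and Dkk1 against hours in 2i (axis not to scale) in the 4 lines, with a point for each library and a line through the means of 3. Wnt7a rose to 20.3 to 27.6 CPM at 96 h in Eed knockout, while Wnt4, Wnt11 and Dkk1 were highest between 12 and 48 h and the other 3 lines stayed below 10 CPM throughout.

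Receptors moved less at 0 h. Fzd6, a receptor of planar cell polarity, was at 18.3, 16.2 and 15.9 CPM in Eed knockout, against 7.55, 6.37 and 6.36 CPM in 1A wild type (1.30 ± 0.16, but 0.34 and not called in the RUV score, limma adjusted p = 0.175). Fzd10 was also higher (19.8, 17.2 and 17.2 CPM, against 8.44, 9.47 and 10.9 CPM in 1A wild type, 0.94 ± 0.19). Fzd7 was at 63.6, 57.7 and 66.7 CPM in Eed knockout, against 131, 138 and 139 CPM in 1A wild type (-1.12 ± 0.11, but 0.05 in the RUV score), and Fzd5 was lower by less (-0.54 ± 0.14, but 0.16 in the RUV score). Lrp5 and Lrp6 were not called. Fzd1 was higher at 96 h, at 9.33, 7.88 and 8.68 CPM in Eed knockout, against 2.87, 3.24 and 3.85 CPM in 1A wild type (1.38 ± 0.27, but 0.17 and not called in the RUV score, limma adjusted p = 0.826).

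Of the antagonists at 0 h, Dkk1 was at 16.4, 17.8 and 17.7 CPM in Eed knockout, against 0.888, 0.490 and 0.254 CPM in 1A wild type (4.82 ± 0.28). Frzb, a secreted protein with a Frizzled-like domain that binds ligands, had 18, 20 and 18 counts in the Eed knockout libraries and no count in the 1A libraries, which made it at least 17.4-fold higher with a floor of 3 counts over the group, and its call was lost in the RUV score (1.5, limma adjusted p = 0.0545). It averaged 3.12 CPM at 0 h and 4.85 CPM at 48 h in Eed knockout but 0.981 CPM at 96 h (-1.65 ± 0.42 against 0 h). Sfrp1 was higher at 0 h (57.5, 52.4 and 64.2 CPM, against 28.1, 23.2 and 25.4 CPM in 1A wild type, 1.18 ± 0.10) but slightly lower than in 1A wild type at 96 h (-0.30 ± 0.08). Sfrp5 was at 2.68, 4.01 and 3.38 CPM in Eed knockout, against 1.48, 1.96 and 1.02 CPM in 1A wild type (1.10 ± 0.31, but not called in the RUV score at 0.87, limma adjusted p = 0.0802), and Sfrp4 was the 1 antagonist that was lower (0.778 CPM in Eed knockout and 2.56 CPM in 1A wild type, -1.72 ± 0.45, but -0.25 and not called in the RUV score, limma adjusted p = 0.785). Without Sfrp1 the 9 other antagonists summed to 36.8 to 37.9 CPM in Eed knockout, against 15.0 to 19.8 CPM in 1A wild type.

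**Figure D4:**
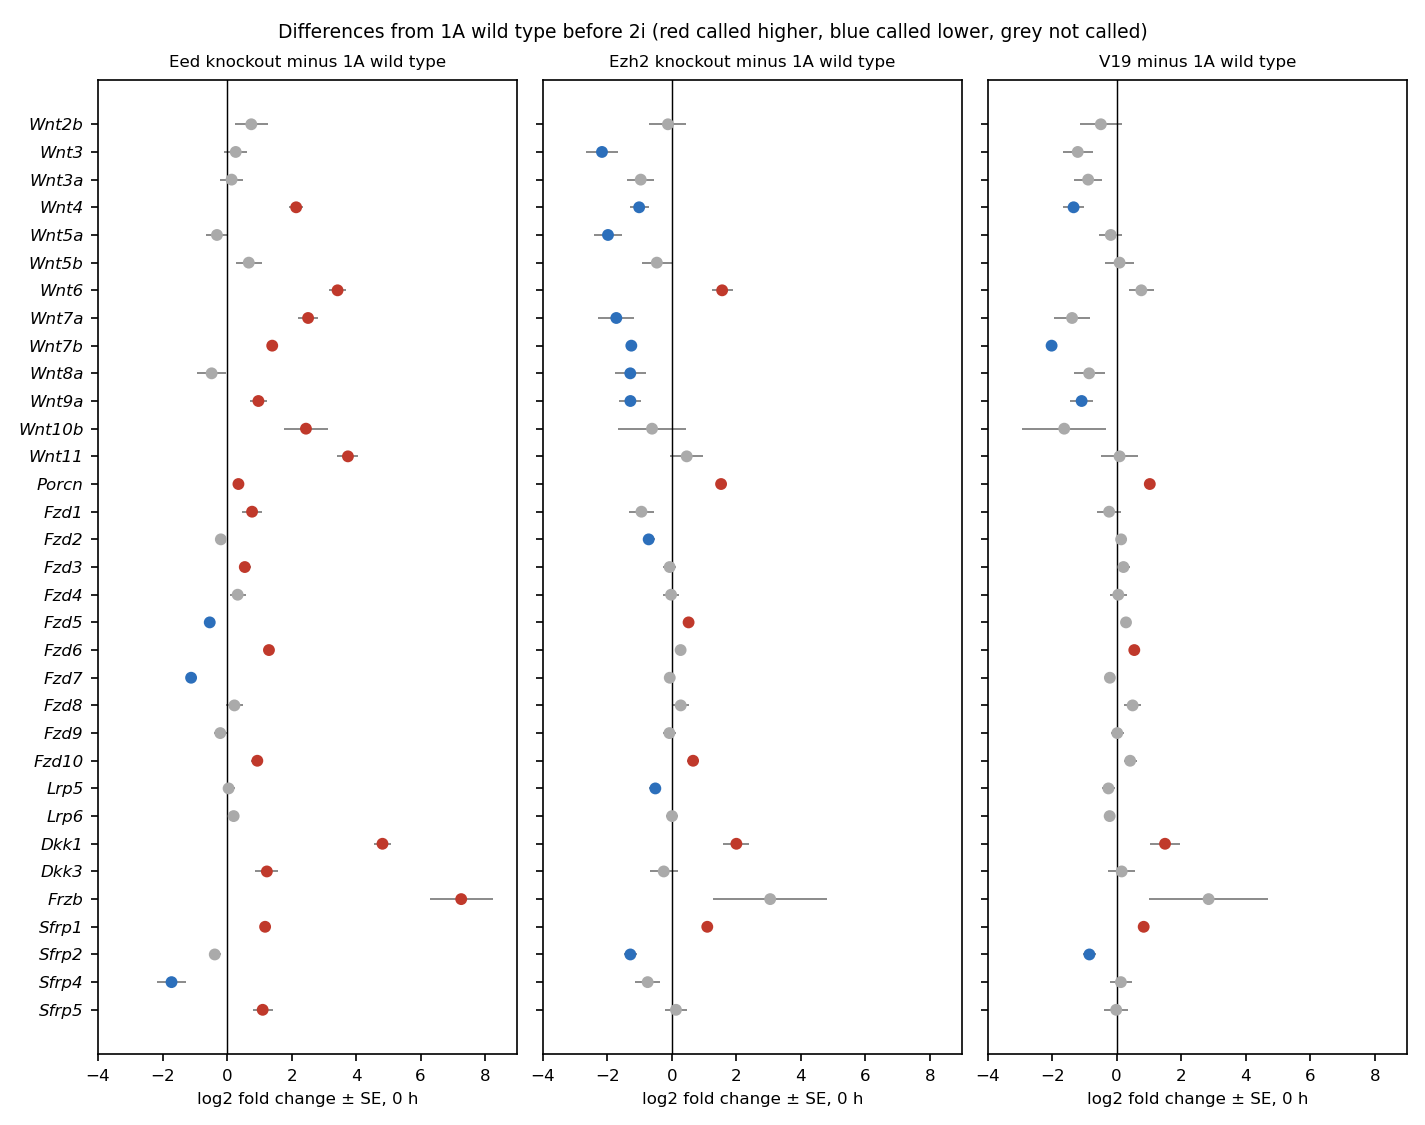
Log2 fold change ± SE at 0 h of the 33 tested genes in Eed knockout, Ezh2 knockout and V19, each against 1A wild type (3 libraries per group), with called genes in red (higher) and blue (lower). Most ligands lie right of 0 in Eed knockout and left of 0 in Ezh2 knockout and V19 in raw counts (the authors' RUV score turns Wnt4, Wnt7a, Wnt7b and Wnt9a to the left in Eed knockout), and the fitted value of Frzb in Eed knockout depends on a prior count because 1A wild type had no count.

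At 96 h the contrast was wider, with 23 members higher and 5 lower in Eed knockout than in 1A wild type, where 55.3% of all genes were called (30.9% higher and 24.4% lower). Of the 13 ligands 11 were higher, with a median of 2.54, and 4 of the 11 turned direction in the RUV score. Without Wnt2b, Wnt10b and Frzb 21 of 30 members were higher and 5 lower, with 10 of 11 ligands higher. At 96 h all 12 primitive endoderm markers were higher in Eed knockout (2398 to 2685 CPM, against 886 to 999 CPM in 1A wild type) and all 9 tested trophoblast markers too (2719 to 2841 CPM, against 339 to 415 CPM in 1A wild type). Of 4 tested mesendoderm markers 4 were higher, of 6 fibroblast markers 3 were higher and 2 lower, and of 4 neural progenitor markers 3 were higher and 1 lower. Of 8 stem cell markers 6 were lower and 0 higher (4410 to 4533 CPM, against 6544 to 6973 CPM in 1A wild type). Their part in these differences was not tested. Wnt7a was at 21.5, 20.3 and 27.6 CPM in Eed knockout, against 0.796, 2.10 and 0.734 CPM in 1A wild type (4.27 ± 0.24, but 0.081 and not called in the RUV score, limma adjusted p = 0.932). Wnt7b was at 59.1, 60.1 and 64.4 CPM in Eed knockout, against 7.48, 6.29 and 4.41 CPM in 1A wild type (3.32 ± 0.17, but 0.32 and not called in the RUV score, limma adjusted p = 0.368). Sfrp2 was at 20.5, 26.8 and 19.5 CPM in Eed knockout, against 6.37, 9.15 and 5.51 CPM in 1A wild type (1.67 ± 0.17). Fzd9 was at 10.1, 13.3 and 13.2 CPM in Eed knockout, against 4.62, 4.77 and 3.49 CPM in 1A wild type (1.5 ± 0.18). The RUV score called 9 members here in place of 28, and 3486 of all genes in place of 8337. Of the 28 calls 5 held in it (Fzd9, Sfrp1, Sfrp2, Wnt3a and Wnt8a), 15 were lost with the same direction and 8 turned. It turned the direction of Dkk1, Frzb, Porcn, Fzd5, Wnt4, Wnt6, Wnt9a and Wnt11.

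In Ezh2 knockout at 0 h the ligands mostly fell below 1A wild type. Wnt7b was at 15.0, 14.1 and 16.2 CPM, against 36.1, 36.6 and 35.1 CPM in 1A wild type (-1.26 ± 0.15). Wnt3 averaged 0.444 CPM in Ezh2 knockout and 2.01 CPM in 1A wild type (-2.17 ± 0.50), and Wnt5a 0.801 CPM in Ezh2 knockout and 3.10 CPM in 1A wild type (-1.98 ± 0.43). Wnt4, Wnt7a, Wnt8a and Wnt9a were lower too (-1.01 ± 0.30, -1.72 ± 0.55, -1.29 ± 0.48 and -1.28 ± 0.34), but each of these 4 calls was lost without replicate 2 of 1A wild type. Without 1 library the highest edgeR adjusted p was 0.164 for Wnt4, 0.0927 for Wnt7a, 0.175 for Wnt8a and 0.0587 for Wnt9a. The call of Wnt7a was also lost without replicate 3 of Ezh2 knockout, and that of Wnt8a without replicate 3 of 1A or any Ezh2 knockout library. Wnt6 was the 1 ligand that was higher, at 4.13, 3.31 and 4.32 CPM in Ezh2 knockout, against 1.78, 1.144 and 0.763 CPM in 1A wild type (1.56 ± 0.33), and it fell to 0.661, 1.11 and 0.873 CPM in Ezh2 knockout at 96 h (-2.13 ± 0.34 against 0 h).

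Porcn showed the largest difference in abundance in Ezh2 knockout, at 90.8, 89.9 and 97.3 CPM, against 29.5, 32.3 and 35.3 CPM in 1A wild type (1.53 ± 0.11), and it was lower in Eed than in Ezh2 knockout (-1.17 ± 0.10). Sfrp1 was at 52.6, 58.5 and 53.4 CPM in Ezh2 knockout, against 28.1, 23.2 and 25.4 CPM in 1A wild type (1.10 ± 0.10), and Dkk1 at 2.92, 2.04 and 2.47 CPM, against 0.888, 0.490 and 0.254 CPM in 1A wild type (2.00 ± 0.41). Sfrp2 was at 4.64, 4.20 and 5.71 CPM, against 12.0, 12.6 and 10.4 CPM in 1A wild type (-1.29 ± 0.20). Fzd5 was higher by 0.52 ± 0.13 and Fzd2 lower (-0.72 ± 0.18). By 96 h 1 member was higher and 5 lower than in 1A wild type, with 13.2% of all genes called (6.56% higher and 6.65% lower). Fzd9 was higher (8.59, 8.70 and 9.82 CPM, against 4.62, 4.77 and 3.49 CPM in 1A wild type, 1.08 ± 0.18), Wnt7b was lower (-1.76 ± 0.29), and Wnt9a was lower (1.49, 1.48 and 1.20 CPM, against 3.50, 4.77 and 3.49 CPM in 1A wild type, -1.5 ± 0.38). Without replicate 3 of 1A wild type 3 of these 6 members were called. Leaving out any 1 library gave 1180 to 1712 calls over all genes at 96 h, in place of 1992.

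V19 differed from 1A, the other wild-type line, in 4 members higher and 4 lower at 0 h, with 5.01 and 5.53% of all genes called higher and lower. Without replicate 2 of 1A wild type 4 members were called in place of 8. Leaving out any 1 library gave 1200 to 1239 calls over all genes here, in place of 1590. Wnt7b was at 9.43, 8.20 and 8.94 CPM in V19, against 36.1, 36.6 and 35.1 CPM in 1A (-2.01 ± 0.17), and Porcn at 61.3, 69.5 and 66.4 CPM, against 29.5, 32.3 and 35.3 CPM in 1A (1.03 ± 0.11). Sfrp2 was at 6.18, 6.35 and 7.24 CPM in V19, against 12.0, 12.6 and 10.4 CPM in 1A (-0.84 ± 0.20). Sfrp1 was at 45.7, 44.1 and 47.9 CPM in V19, against 28.1, 23.2 and 25.4 CPM in 1A (0.84 ± 0.10). The 812 tested genes of chromosome 8, where Sfrp1 lies, had a median of 0.40 in V19 against 1A, while the medians of the other autosomes were between -0.05 and 0.05, and its part in the difference of Sfrp1 was not tested. The comparisons of Ezh2 knockout and of V19 with 1A use the same 1A libraries, and side by side their log2 fold changes were -1.26 in Ezh2 knockout and -2.01 in V19 for Wnt7b, 1.53 in Ezh2 knockout and 1.03 in V19 for Porcn, 1.10 in Ezh2 knockout and 0.84 in V19 for Sfrp1, and -1.29 in Ezh2 knockout and -0.84 in V19 for Sfrp2. Among members called in Ezh2 knockout and not in V19, they were -1.98 in Ezh2 knockout and -0.18 in V19 for Wnt5a, -2.17 in Ezh2 knockout and -1.20 in V19 for Wnt3, 1.56 in Ezh2 knockout and 0.77 in V19 for Wnt6, -0.72 in Ezh2 knockout and 0.14 in V19 for Fzd2, and 0.52 in Ezh2 knockout and 0.29 in V19 for Fzd5. Dkk1 was also called higher, and Wnt4 and Wnt9a lower, in both comparisons, while Fzd6 was called higher in V19 and not in Ezh2 knockout. In the RUV score the V19 calls of Wnt4 (-0.74, limma adjusted p = 0.233) and Wnt9a (-0.67, limma adjusted p = 0.312) were lost. Without a filter those of Dkk1 (edgeR adjusted p = 0.0724) and Fzd6 (edgeR adjusted p = 0.183) were lost. Whether Ezh2 knockout and V19 differ in any of these members was not tested.

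The rest of the pathway, taken as 4 lists of other genes, changed in both directions. At 96 h in 1A wild type, 4 of 17 tested beta-catenin target genes were higher and 6 lower (median -0.18, against 0.02 over all genes), where 25.1% of all genes were called higher and 23.5% lower. Cdx1, a homeobox target, was higher (3.58 ± 0.20), while Lef1, a TCF family factor that is also a target (-4.61 ± 0.22), Bmp4 (-2.32 ± 0.14) and Ccnd1, which encodes cyclin D1 (-1.58 ± 0.09), were lower. Of 15 tested genes of Wnt secretion and extracellular control 6 were higher and 3 lower, with Wls, the carrier that takes ligands to the surface, at 2.29 ± 0.23, and Lgr4, a receptor for R-spondins, at -1.25 ± 0.12. Of 12 alternative receptors 4 were higher and 4 lower, with the receptor kinases Ror2 at 1.71 ± 0.16 and Ror1 at -2.98 ± 0.42. Of 22 intracellular genes 5 were higher and 4 lower. At 12 h in 1A wild type, 11 of these 22 were lower and 1 higher, with 20.8% of all genes called lower and 20% higher. In Eed knockout at 0 h, 8 of 17 targets were higher than in 1A wild type and 5 lower (median 0.61, with 26.4 and 23.3% of all genes called). Cdx2, also a trophoblast gene, was at 4.40 ± 0.27 and Cdx1 at 2.55 ± 0.22. Ccnd1 (-1.18 ± 0.09), Lef1 (-1.22 ± 0.15) and Notum (-1.27 ± 0.12) were lower. Of the 15 genes of Wnt secretion and extracellular control, which also include Notum, 8 were higher and 2 lower, with Wls at 2.44 ± 0.22. In Ezh2 knockout 4 targets were higher and 5 lower (11.9 and 10.9% of all genes), with Sp5, a direct target of beta-catenin, at -3.69 ± 0.31 and Cdx1 at 1.87 ± 0.24.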

How the data were processed

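The deposited table holds raw counts, whole reads per gene, made by the authors with STAR 2.7.10b and featureCounts 2.0.3 on GRCm39, per the submitters' processing notes. The authors also deposited a score made by removal of unwanted variation (RUV), in whole numbers, with settings not given in the sources used here, which was used only as an alternative. Genes passing edgeR's filterByExpr (minimum count 10, minimum total 15) were tested with edgeR 4.0.16 in R 4.3.3, with TMM factors, 20 groups in 1 model and 40 residual degrees of freedom, in 17 comparisons of which 3 are differences of the 96 h response between lines. Levels at 24 and 48 h entered no test of their own. CPM use TMM factors, and RPKM divide them by the exon length in the table. Counts per library limit the precision of genes at low CPM.

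The members, lists and tests were chosen with earlier results of these data known. Values per library are given for the 20 members that reached a group mean of 5 CPM and were called at least 2-fold in a comparison. The steps were tested on simulated counts. Of 60 pairs of libraries within groups none was a duplicate (lowest chi-square per degree of freedom 1.13). In 0 of 14 comparisons did all same-numbered replicates deviate together with correlations above 0.1. Single correlations ranged from -0.382 (replicate 2 of V19, 12 h against 0 h) to 0.271 (replicate 2 of Eed knockout, 96 h against 0 h). Promoters are RefSeq windows on GRCm38.p6, and coordinates of genes are those of the count table. The alternatives tried were no filter, RLE size factors, a mean of at least 1 CPM, a replicate block, DESeq2 1.42.0, only the groups compared, the RUV score with limma 3.58.1 on log2 of the value plus 1, leaving out each library and, chosen after seeing the data, leaving out 10 libraries for their deviation or that of their group.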

Additional observations from a re-analysis of the deposited data

Results flagged for a closer look

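The response of 24 cases, a member in a line, differed from that of 1A wild type between 0 and 96 h by a test of the difference itself (an edgeR interaction with p-values adjusted over all genes, log2 scale). In Eed knockout the response was more positive for Wnt8a by 3.98, Wnt5a by 3.54, Sfrp2 by 2.06, Wnt2b by 1.96, Wnt7b by 1.92, Wnt7a by 1.76, Fzd9 by 1.71, Wnt3a by 1.69, Wnt9a by 1.45 and Fzd2 by 0.68. It was more negative in Eed knockout for Dkk1 at -1.97, Wnt6 at -1.88, Sfrp1 at -1.48, Fzd10 at -0.99 and Porcn at -0.64. The fitted value of Frzb, -4.91, depends on a prior count, since 1A wild type had no count at 0 h, and gives a direction only. The call of Frzb was lost without any 1 of the 12 libraries compared (highest edgeR adjusted p = 0.102). Leaving out 1 library also ended the calls of Fzd2 (7 of 12 libraries), Wnt2b (5 of 12) and Wnt3a (4 of 12), with values of at least 0.56, 1.5 and 1.22. In the RUV score Fzd2 (0.60, limma adjusted p = 0.0903), Wnt2b (1.57, limma adjusted p = 0.245) and Wnt3a (1.59, limma adjusted p = 0.0776) were not called. Nor were Wnt7a and Wnt9a. Wnt2b and Frzb were tested because of their level in Eed knockout. Wnt8a had only 0, 0 and 1 reads in 1A wild type at 96 h.

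In Ezh2 knockout the response differed from that of 1A wild type by 1.42 for Sfrp2 and 1.16 for Fzd9, and by -2.51 for Wnt6, -1.56 for Dkk1, -1.27 for Porcn, -1.03 for Sfrp1 and -0.59 for Fzd5. The calls of Dkk1 and Fzd5 were lost without 1 library in 6 and 7 of 12 cases. In V19 the response of Porcn differed by -1.39. Sfrp5 moved in opposite ways at 12 h, at -0.94 in Eed knockout and 0.83 in Ezh2 knockout, each with libraries that did not overlap those at 0 h. The call in Ezh2 knockout was lost without replicate 3 at 0 h or replicate 2 at 12 h (highest edgeR adjusted p = 0.159), in DESeq2 (adjusted p = 0.0543) and in the RUV score (limma adjusted p = 0.0689), and that in Eed knockout in the RUV score (limma adjusted p = 0.053). The difference between the 2 lines at 12 h was not tested, and replicates 1 and 3 of both lines at 12 h deviate more than the median library.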

How the results depend on the processing

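The count of members called stayed within 1.5 times its main value under RLE size factors, DESeq2 and a replicate block in all 17 comparisons. The replicate block kept 244 of 246 calls of single members, RLE factors 242 of 246, DESeq2 229 of 245 and no filter 232 of 246. The labels do not say that replicate numbers pair these libraries. The difference of the V19 response, with 1 member called, had 2 without a filter, 2 with a mean of at least 1 CPM, 2 without the 10 libraries left out for their deviation or that of their group, 3 with only the groups compared and 2 in the RUV score. The RUV score called 8 members at 12 h in Eed knockout (15 in raw counts), 10 at 0 h in Eed knockout compared with 1A wild type (20), 3 in Eed against Ezh2 knockout at 0 h (24) and 9 at 96 h in Eed knockout compared with 1A wild type (28). In the same order, its calls over all genes were 7397 (7588 in raw counts), 3005 (7488), 1737 (6832) and 3486 (8337). No calls turned direction under the other alternatives. In the RUV score 19 did. In Eed knockout compared with 1A wild type at 0 h these were Wnt7b (-1.16), Fzd3 (-0.11), Wnt9a (-1.39), Wnt7a (-1.08), Fzd1 (-0.31), Wnt4 (-0.59), Fzd5 (0.16) and Fzd7 (0.049). Against Ezh2 knockout at 0 h these were Fzd3 (-0.0071), Wnt9a (-0.033) and Fzd7 (0.037). At 96 h against 1A wild type these were Porcn (0.68), Dkk1 (-0.54), Wnt9a (-0.40), Wnt11 (-0.46), Wnt4 (-0.80), Frzb (-1.59), Wnt6 (-0.71) and Fzd5 (0.26). The cause was not tested. With 1 library left out, 1398 of 1620 calls held and none turned direction.

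In the fits that left out each library in turn, calls over all genes (in brackets below) stayed under those with all libraries in every comparison. Members called ranged over 10 to 12 (5241 to 5464) for 1A wild type 12 h against 0 h, 14 to 19 (6548 to 6766) for 1A wild type 96 h against 0 h, 13 to 16 (3493 to 3855) for the 96 h response of Eed knockout minus 1A wild type, 5 to 8 (1461 to 1694) for the 96 h response of Ezh2 knockout minus 1A wild type, 1 to 2 (172 to 209) for the 96 h response of V19 minus 1A wild type, 11 to 16 (6620 to 7553) for Eed knockout 12 h against 0 h. They ranged over 18 to 20 (5226 to 5408) for Eed knockout 96 h against 0 h, 18 to 21 (6633 to 6982) at 0 h for Eed knockout over 1A wild type, 26 to 29 (7537 to 7823) at 96 h for Eed knockout over 1A wild type, 21 to 23 (5880 to 6273) for Eed knockout against Ezh2 knockout at 0 h, 12 to 14 (6599 to 7417) for Ezh2 knockout 12 h against 0 h, 11 to 12 (5703 to 5935) for Ezh2 knockout 96 h against 0 h. The range was 11 to 15 (2768 to 2947) for Ezh2 knockout against 1A wild type at 0 h, 3 to 5 (1180 to 1712) for Ezh2 knockout against 1A wild type at 96 h, 6 to 10 (5340 to 6044) for V19 12 h against 0 h, 14 to 16 (6335 to 6552) for V19 96 h against 0 h, 4 to 8 (1200 to 1239) for V19 against 1A wild type at 0 h. Without replicate 2 of 1A wild type at 0 h the V19 comparison had 4 members called, and without replicate 3 of 1A wild type at 96 h the Ezh2 comparison at 96 h had 3. In these fits the smallest group has 2 libraries, so the filter on low counts passes more genes than with all 60, and the left-out library and the wider filter act together. Low counts kept 9 of the 42 members out of the tests.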

Other observations

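Of the 9 members with too few counts to be tested, 4 are given here, chosen after their values were seen. Wnt9b averaged 2.09 CPM at 48 h in Eed knockout and 0.114 CPM in 1A wild type, and its exons overlap those of Wnt3 on the other strand. Wnt16 averaged 0.990 CPM at 96 h in Eed knockout and 0.0636 CPM in 1A wild type. Wif1, a secreted protein that binds Wnt ligands, averaged 1.25 CPM at 96 h in Eed knockout and 0.284 CPM in 1A wild type. Dkk2, a relative of Dkk1, averaged 0.722 CPM at 96 h in Eed knockout, from 15 reads over 3 libraries, and had 0 reads in the 3 libraries of 1A wild type at 96 h. These are levels without a test.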
